A study of Homo sapiens with 9 samples.

Results

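The genes of 10 macrophage surface and lysosomal proteins were followed in THP-1 cells, a monocyte-like leukaemia line, given vesicles of hepatoma cells. They were MSR1, MARCO, CD36, CD163, MRC1, CD68, TREM1, TREM2, GPNMB and LGALS3, taken by symbol (the earliest row of each) from the 30000 rows of the deposited count table. RNA was sequenced in 9 libraries in 3 groups of 3: THP-1 cells without ectosomes (control), THP-1 cells with ectosomes and a scramble shRNA, and THP-1 cells with ectosomes and a PKM2 knockdown shRNA. Ectosomes are vesicles shed from the plasma membrane, here from the hepatoma line Huh7 according to the series title, and the shRNAs were read here as carried by the Huh7 donors. The sources used here give no dose, incubation time or number of knockdown clones. Nothing says that replicates came from separate cultures, so the spread behind each p-value is that between libraries and may be technical.

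Scavenger receptors bind modified lipoproteins, dying cells and microbes and bring them into the phagocyte. TREM1 and TREM2 are related receptors of the immunoglobulin fold that signal through the adaptor DAP12. TREM1 amplifies inflammatory signals, whereas TREM2 senses lipids and marks, with GPNMB, CD36 and galectin-3 (LGALS3), the lipid-associated macrophages of fatty, injured or tumour tissue.

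The libraries held 17744587 to 23864381 counts, so a level of 1 CPM (the count relative to the depth of its library, here scaled by TMM) rested on about 18 to 23 reads. Of the 10 genes, 9 passed the filter on low counts and were tested among 18437 rows, and MRC1 did not. PKM transcript, whose isoforms the table does not separate, stood at 428 to 789 CPM in control cells, 3376 to 3573 with scramble ectosomes and 2181 to 2454 with PKM2-knockdown ectosomes. As the knockdown was read as one of the donor cells, these values do not check it. Control replicate 3 stood apart, with a chi-square per degree of freedom of 43.6 and 40.1 against the other controls, which differed from each other by 4.69. All 10 myeloid markers (PTPRC, CD33, ITGAM, CD14, CD4, CSF1R, SPI1, LYZ, FCGR1A and CD86) had reads. Their sum ran from 939 to 1045 CPM in control cells, 1277 to 1328 with scramble and 1871 to 1970 with PKM2-knockdown ectosomes. The markers went both ways with scramble ectosomes, where 4 rose and 5 fell (34.6% and 33.2% of all rows tested). With PKM2-knockdown against scramble ectosomes 7 rose and 0 fell (31.4% and 30.3% of all rows tested). In bulk RNA, more cells expressing a gene and more RNA per cell cannot be told apart. Among the calls over all rows, 51.0% were rises with scramble ectosomes and 50.9% with PKM2-knockdown against scramble ectosomes, and scaling by library totals alone made these 40.2% and 61.9%. The 3 comparisons share libraries and are not separate evidence.

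With scramble ectosomes, TREM1, LGALS3, GPNMB and MSR1 were higher than in control cells and TREM2 and CD36 were lower. That is 6 of the 9 genes tested, at an adjusted p under 0.05 in edgeR's quasi-likelihood test, where 67.8% of all rows tested were called in this comparison. PKM2-knockdown ectosomes set TREM2 10.1-fold, CD36 7.24-fold, CD163 4.51-fold and GPNMB 3.54-fold above scramble ectosomes, and TREM1 and MSR1 below. These were again 6 of 9, against 61.6% of all rows. Against control, 5 of the 9 genes rose with PKM2-knockdown ectosomes (GPNMB, TREM1, CD163, LGALS3 and CD36) and 0 fell, where 53.7% of all rows were called, 27.0% as rises and 26.7% as falls. The shares called lay near those of all rows, and so the counts show nothing particular to these genes. MSR1 passed the filter of 0.481 CPM in 3 libraries only through the scramble libraries, where it is highest, and so adds nothing to such a count. CD68 reached that level in 1 control and 2 PKM2-knockdown libraries, so it was tested only because of both groups together. It was not called in any comparison.

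**Figure D1:**
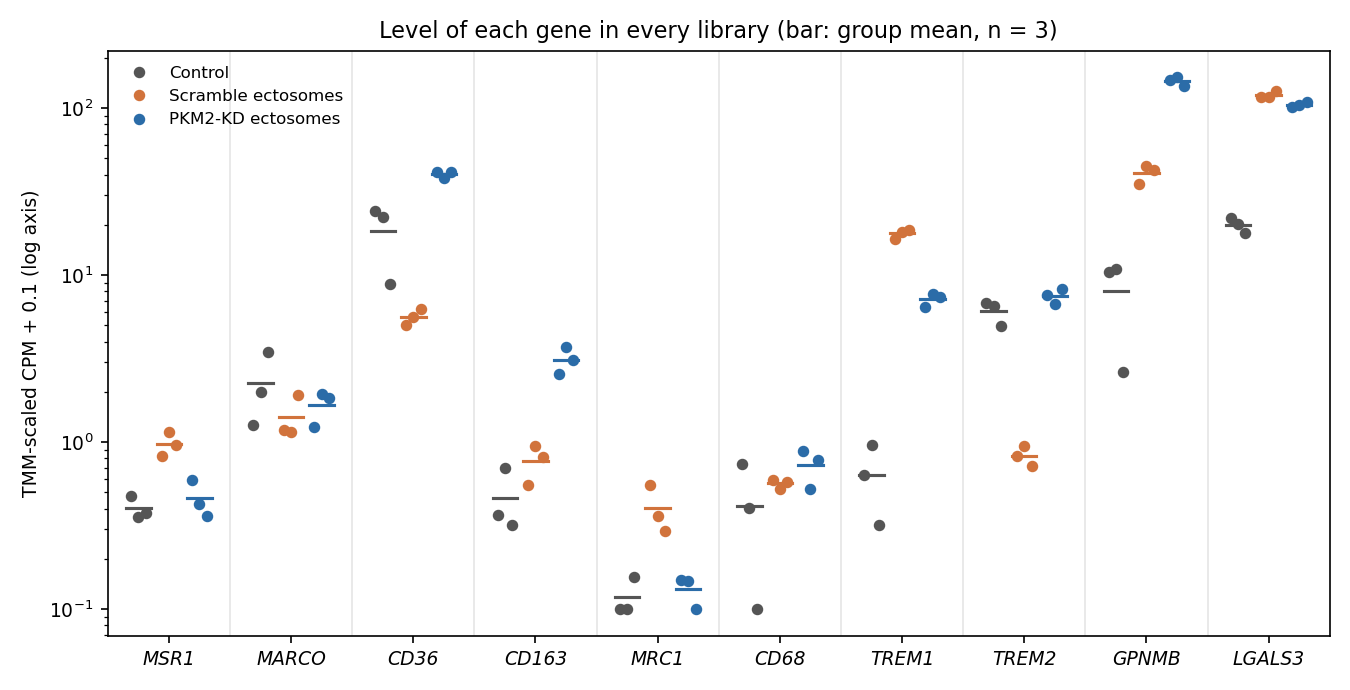
TMM-scaled CPM plus 0.1 on a log axis for each gene in each of the 9 libraries, with bars at group means (n = 3). GPNMB is highest in the 3 libraries with PKM2-knockdown ectosomes (136 to 153 CPM), and TREM2 is lowest in the 3 with scramble ectosomes (0.623 to 0.842 CPM).

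The receptor pair of TREM1 and TREM2 moved in opposite directions. TREM2 (chromosome 6, 41158506 to 41163186, minus strand, GRCh38, GENCODE 29) held 6.71, 6.41 and 4.86 CPM in the control libraries. It held 0.722, 0.842 and 0.623 CPM with scramble ectosomes and 7.46, 6.66 and 8.13 CPM with PKM2-knockdown ectosomes. The scramble libraries lay below every other library (71.3% of all rows had scramble and control groups apart), and the control and PKM2-knockdown libraries overlapped. TREM2 fell 8.20-fold with scramble ectosomes (log2 change -3.04, SE 0.21, adjusted p = 4.09e-07) and was 10.1-fold higher with PKM2-knockdown than with scramble ectosomes (log2 change 3.34, SE 0.21, adjusted p = 4.09e-07). Between PKM2-knockdown ectosomes and control the log2 difference was 0.30 (SE 0.16, adjusted p = 0.144), which did not pass the threshold. TREM1 (chromosome 6, 41267926 to 41286719, minus strand) held 0.533, 0.861 and 0.221 CPM in control cells, 16.4, 18.01 and 18.6 CPM with scramble ectosomes, and 6.38, 7.64 and 7.29 CPM with PKM2-knockdown ectosomes. None of the 3 groups overlapped another (60.5% of all rows had PKM2-knockdown and control groups apart). TREM1 rose 31.2-fold with scramble ectosomes (log2 change 4.97, SE 0.27, adjusted p = 6.07e-08), and was 2.49-fold lower with PKM2-knockdown than with scramble ectosomes (adjusted p = 0.000171) but 12.6-fold above control (adjusted p = 1.93e-06). The control level rested on 10, 20 and 4 reads. The rise with scramble ectosomes was 45.8-fold without control replicate 2 and 24.5-fold without control replicate 3.

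The ratio of TREM1 to TREM2 counts within a library needs no scaling between libraries. Its log2 value (0.5 added to each count) was -3.58 ± 0.716 (SD, n = 3) in control cells, 4.56 ± 0.253 with scramble ectosomes and -0.06 ± 0.227 with PKM2-knockdown ectosomes. TREM2 thus gave about 12.0 times the reads of TREM1 in control cells and TREM1 23.6 times those of TREM2 with scramble ectosomes, while the counts were nearly equal with PKM2-knockdown ectosomes. The ratio takes no account of length, and TREM1 has 4329 exon bases against 1095 in TREM2, merged over all annotated transcripts of each gene. Merged exons can be longer than the transcripts made, so levels per kilobase compare genes only roughly. Per kilobase of exons, TREM2 stood at 6.77 and TREM1 at 1.64 CPM with PKM2-knockdown ectosomes. The pair was chosen with these results known, and no test is given for the ratio.

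Both genes lie in the TREM cluster, 104739 bases apart, with TREML2 and TREML4 between them and TREML1 beyond TREM2. TREML2 and TREML4 encode TREM-like receptors. TREML2 held 0.991 ± 0.636, 5.13 ± 0.417 and 1.12 ± 0.0956 CPM in the 3 groups (control, scramble, PKM2 knockdown). It rose 5.08-fold with scramble ectosomes (adjusted p = 0.000172) and was 4.57-fold lower with PKM2-knockdown ectosomes (adjusted p = 0.000323). For TREML4 the reads summed to 0 in control cells, 84 with scramble and 10 with PKM2-knockdown ectosomes. TREML4 passed the filter on low counts only through the scramble libraries, so its calls describe a gene that had to differ. Its level with scramble ectosomes was at least 27.1-fold above control, against a floor of 3 counts over the group (adjusted p = 1.86e-05), and with PKM2-knockdown ectosomes it was 7.99-fold below scramble (adjusted p = 0.000233). TREML1, made mainly in platelets, stood at 0.32, 0.398 and 0.736 CPM. TREM1 and TREML2 were thus called higher with scramble ectosomes and lower again with PKM2-knockdown ectosomes, and TREM2 was called in the opposite directions.

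**Figure D2:**
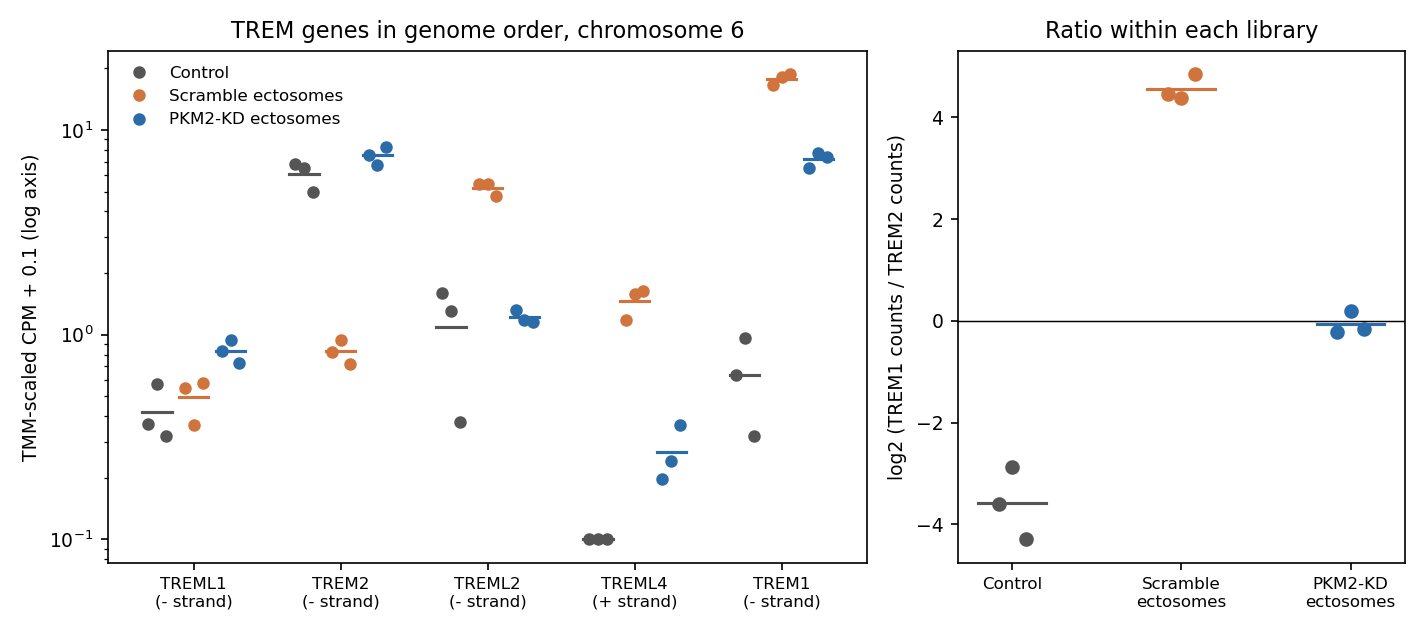
Left, TMM-scaled CPM plus 0.1 (log axis) of the 5 TREM genes in their order along chromosome 6, per library with group means. Right, log2 ratio of TREM1 to TREM2 counts in each library, which is at -2.87 or below in every control library, at 4.38 or above in every scramble-ectosome library and between -0.225 and 0.198 with PKM2-knockdown ectosomes.

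Because these neighbours changed in opposite directions, the stretch before the start site of each is shown. Sequences are from RefSeq (GRCh38.p14), read along the gene's strand and ending where the earliest exon of GENCODE 29 begins, 70 bases before RefSeq's start site for TREM2 and 37 for TREM1. Promoters were found for 8 of the 10 genes. Capitals mark matches to a C/EBP element (TTGCNNAA) or a STAT element (TTCNNNGAA), searched on both strands.
TREM2 (chr6:41163187-41163366, minus strand): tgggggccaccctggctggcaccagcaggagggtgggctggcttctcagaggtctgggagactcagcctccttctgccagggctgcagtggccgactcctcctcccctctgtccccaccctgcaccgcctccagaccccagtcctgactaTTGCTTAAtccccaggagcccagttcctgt
TREM1 (chr6:41286720-41286932, minus strand): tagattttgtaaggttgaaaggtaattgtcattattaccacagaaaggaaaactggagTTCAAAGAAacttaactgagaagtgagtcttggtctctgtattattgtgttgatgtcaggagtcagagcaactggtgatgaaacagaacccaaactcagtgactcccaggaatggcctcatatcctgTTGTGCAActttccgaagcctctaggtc
Each stretch held 1 match to the C/EBP letters, 100 bases before the start site in TREM2 and 65 in TREM1, where 6.98% and 8.06% of the 35116 promoters of the table held one in the same window. The TREM1 stretch also held the STAT letters once, 192 bases before the start site (5.82% of promoters), and the matches share no base. No match was found in either stretch to an E-box (CACGTG), AP-1 (TGANTCA), PU.1 (GAGGAA) or NF-kB (GGGANNNNCC) motif. A match to letters is a description of the sequence and says nothing of binding.

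GPNMB and LGALS3 were the most abundant of the 10 genes with ectosomes of either kind. GPNMB, a glycoprotein of lysosomes and the cell surface (chromosome 7, 23235967 to 23275108, plus strand), held 10.3, 10.8 and 2.54 CPM in control cells. It held 35.1, 45.02 and 42.7 CPM with scramble and 146, 153 and 136 CPM with PKM2-knockdown ectosomes. The groups did not overlap and rose in that order. GPNMB was 5.14-fold above control with scramble ectosomes (log2 change 2.36, SE 0.35, adjusted p = 0.000124), a further 3.54-fold higher with PKM2-knockdown ectosomes (log2 change 1.83, SE 0.32, adjusted p = 0.000508) and 18.2-fold above control there (log2 change 4.19, adjusted p = 5.18e-06). Of the rows tested, 3.37% were called higher in all 3 comparisons, as GPNMB was. The sets of calls of TREM1, LGALS3, MSR1, TREM2 and CD163 were held by 7.11%, 7.36%, 11.6%, 11.1% and 5.34% of rows.

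LGALS3, encoding galectin-3, a lectin that binds damaged lysosomes and glycoproteins (chromosome 14, 55124110 to 55145413, plus strand), held 21.9, 20.1 and 17.8 CPM in control cells. It held 117, 117 and 127 CPM with scramble ectosomes and 101, 104 and 109 CPM with PKM2-knockdown ectosomes. LGALS3 was 6.04-fold above control with scramble ectosomes (log2 change 2.60, SE 0.09, adjusted p = 4.62e-09). The rise over control with PKM2-knockdown ectosomes was 5.25-fold (log2 change 2.39, SE 0.09, adjusted p = 1.87e-08). Every PKM2-knockdown library lay below every scramble library, and groups were likewise apart in 74.5% of all rows, yet the difference was small and missed the threshold (log2 change -0.20, SE 0.08, adjusted p = 0.0570). It passed in 6 of 16 alternatives, with an adjusted p between 0.00396 and 0.791 over all 16.

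Per kilobase of exons, LGALS3 led the 10 genes in every group. It stood at 8.31 ± 0.862 CPM per kilobase in control cells, 50.3 ± 2.39 with scramble and 43.7 ± 1.72 with PKM2-knockdown ectosomes. Exons were merged over all annotated transcripts of a gene, so this order depends on the merged lengths. TREM2 came next in control cells, at 5.47 ± 0.910 CPM per kilobase, but GPNMB did so with scramble (6.78 ± 0.859) and PKM2-knockdown ectosomes (24.02 ± 1.37). TREM1 stood at 4.08 ± 0.269 CPM per kilobase with scramble ectosomes, ahead of TREM2, MARCO and CD36 at 0.666 ± 0.1003, 0.635 ± 0.209 and 0.508 ± 0.0558, whose spreads overlapped or nearly met. In control cells CD36, GPNMB and MARCO, at 1.69 ± 0.771, 1.30 ± 0.766 and 1.03 ± 0.538 CPM per kilobase, could not be ordered beyond their spread. MSR1 and MRC1 were the lowest in every group, at or below 0.113 CPM per kilobase, with CD163 at 0.115 ± 0.0344 beside MSR1 with scramble ectosomes.

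CD36, the class B receptor that takes up oxidised lipoprotein and fatty acids (chromosome 7, 80369575 to 80679277, plus strand), held 24.1, 22.2 and 8.72 CPM in control cells, 4.92, 5.53 and 6.13 CPM with scramble ectosomes and 41.2, 37.9 and 41.1 CPM with PKM2-knockdown ectosomes. The 3 groups did not overlap, with the scramble libraries lowest. CD36 fell 3.33-fold with scramble ectosomes (log2 change -1.73, SE 0.30, adjusted p = 0.000445). It was 7.24-fold higher with PKM2-knockdown than with scramble ectosomes (log2 change 2.86, SE 0.31, adjusted p = 1.72e-05) and exceeded control 2.18-fold (log2 change 1.12, SE 0.28, adjusted p = 0.00589). The same 3 calls were held by 2.58% of the rows tested. Among the 9 genes tested of the set of 10, TREM2 had the profile nearest to that of CD36. The root mean square difference was 0.514 in centred log2 CPM over the 9 libraries, and genes outside the set lay nearer (AHNAK2 at 0.158).

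CD163, the receptor of haemoglobin bound to haptoglobin (chromosome 12, 7470813 to 7503893, minus strand), was sparse outside the PKM2-knockdown group. It had 5, 14 and 4 reads in the control libraries, 10, 16 and 15 with scramble ectosomes and 50, 77 and 57 with PKM2-knockdown ectosomes, or 0.363 ± 0.209, 0.671 ± 0.200 and 3.02 ± 0.579 CPM. The PKM2-knockdown libraries lay above all others and the other groups overlapped. CD163 was 4.51-fold above scramble ectosomes (log2 change 2.17, SE 0.33, adjusted p = 0.000206) and exceeded control 7.89-fold (adjusted p = 5.68e-05). The excess over control was 6.63-fold without control replicate 3 and 12.1-fold without control replicate 2. Between scramble ectosomes and control its adjusted p was 0.117, with a range of 0.0220 (without control replicate 2) to 0.286 over the alternatives. CD163 shares 38 of its 5813 exon bases with CD163L1, which held 7.48 ± 0.138, 14.0 ± 0.887 and 10.5 ± 0.675 CPM in the 3 groups.

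MSR1 and MARCO, the class A scavenger receptors, were expressed at low levels. MSR1 (chromosome 8, 16107878 to 16567490, minus strand) had 5 to 7 reads per control library, 16 to 20 with scramble ectosomes and 5 to 10 with PKM2-knockdown ectosomes. In these few reads it was 2.88-fold higher with scramble ectosomes than in control cells (log2 change 1.52, SE 0.35, adjusted p = 0.00247) and 2.40-fold lower with PKM2-knockdown ectosomes (adjusted p = 0.00709). MSR1 passed the filter on low counts only through the scramble libraries, where it is highest, so these calls describe its reads and support nothing further. MARCO (chromosome 2, 118942166 to 118994660, plus strand) held 1.17, 1.89 and 3.37 CPM in control cells, 1.08, 1.05 and 1.82 CPM with scramble and 1.13, 1.83 and 1.73 CPM with PKM2-knockdown ectosomes. All 3 groups overlapped and no difference passed the threshold (adjusted p = 0.136, 0.618 and 0.347). Without control replicate 1, MARCO passed as lower with scramble ectosomes (log2 change -0.98, adjusted p = 0.0327), and its adjusted p in that comparison ran from 0.0327 to 0.522.

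MRC1, the mannose receptor CD206 (chromosome 10, 17809344 to 17911170, plus strand), had 1 read over the control libraries, 10, 5 and 4 reads with scramble ectosomes and 2 reads over the PKM2-knockdown libraries. Its ratio of scramble to control CPM was 18.4, with an exact 95% interval of 2.93 to 765, and that of PKM2-knockdown to scramble was 0.107 (0.0121 to 0.445). Such intervals use reads summed over the libraries of a group, so they cover counting error only and not the spread between libraries. Even that error may be understated, since PCR copies cannot be told from separate molecules in these reads. Fitted with no filter on low counts, MRC1 was called in both (adjusted p = 0.00740 and 0.0171).

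CD68, the lysosomal glycoprotein commonly used to stain macrophages (chromosome 17, 7579467 to 7582113, plus strand), had 0 to 16 reads per library, at 0.314 ± 0.320, 0.466 ± 0.0394 and 0.630 ± 0.187 CPM in the 3 groups. No difference passed the threshold, though without control replicate 1 its rise with PKM2-knockdown ectosomes over control did (adjusted p = 0.0478, in a range of 0.0478 to 0.430). In GENCODE 29, 1789 of the 2189 exon bases of CD68 (81.7%) are shared with exons of AC016876.2 on the same strand, which itself had 0 to 8 reads per library. The sources used here do not say how reads falling on 2 genes were counted or which annotation release was used. These counts thus cannot be taken as a measure of the CD68 transcript level, and a loss of reads to the overlap was not tested. Exons of the other 9 genes share at most 0.654% of their bases with another gene.

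**Figure D3:**
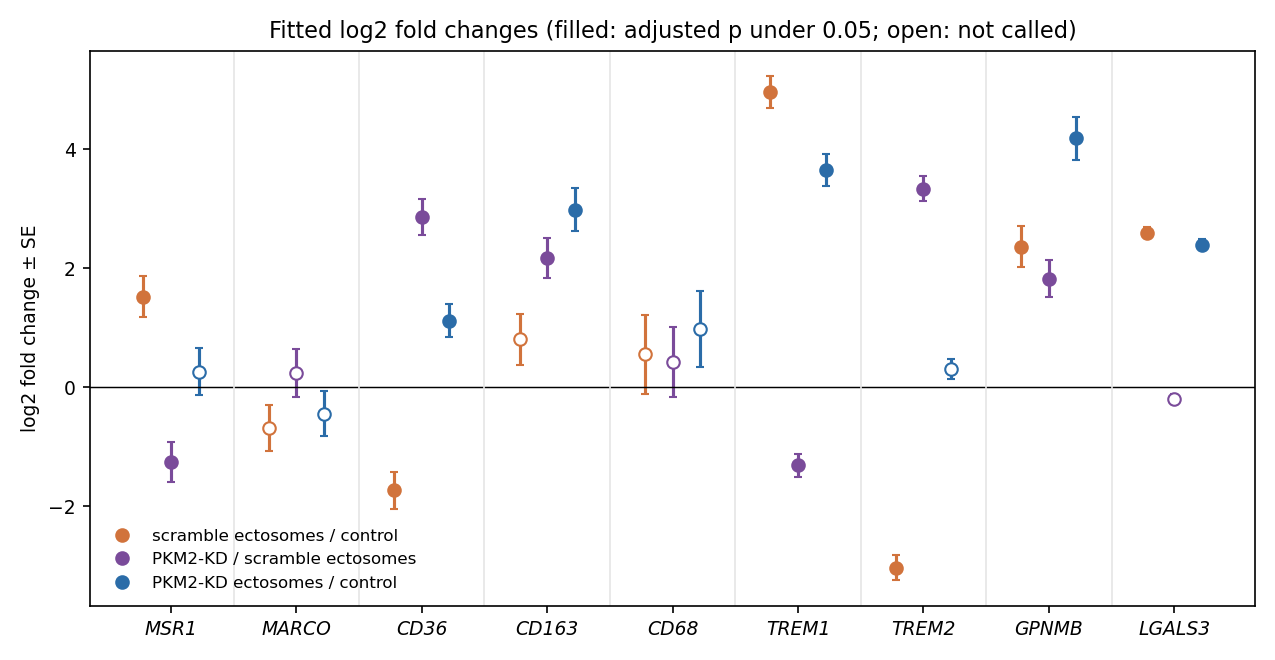
Fitted log2 changes with SE for the 9 genes tested in the 3 comparisons, filled where the adjusted p is under 0.05. TREM2 and CD36 are negative with scramble ectosomes against control (-3.04 and -1.73) and positive with PKM2-knockdown against scramble ectosomes (3.34 and 2.86), and TREM1 is the reverse (4.97 and -1.31).

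Control replicate 3 was low for several of the genes. Against the mean of the other controls it was 4.15-fold lower in GPNMB, 3.16-fold in TREM1 and 2.65-fold in CD36, while MARCO was higher in it (3.37 against 1.53 CPM) and LGALS3 and TREM2 were 1.18-fold and 1.35-fold lower. Without it the calls of the 9 genes stayed as they were in the comparisons with control, with GPNMB 3.86-fold and TREM1 24.5-fold above control with scramble ectosomes. CD36 was then 4.19-fold below control with scramble ectosomes. With PKM2-knockdown ectosomes GPNMB was 13.7-fold and CD36 1.73-fold above control without it, against 18.2-fold and 2.18-fold with it.

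Genes with roles beside those of the receptors were counted in lists. Over all rows, 34.6% rose and 33.2% fell with scramble ectosomes, 31.4% rose and 30.3% fell with PKM2-knockdown against scramble ectosomes, and 27.0% rose and 26.7% fell with PKM2-knockdown ectosomes against control. Of the listed genes tested, 12 would have failed the filter on low counts without the libraries of 1 of the groups. The counts thus describe the lists and support nothing further. For DAP12 signalling and receptor shedding, 10 of 20 genes tested rose and 8 fell with scramble ectosomes, 10 rose and 5 fell with PKM2-knockdown against scramble ectosomes, and 10 rose and 3 fell against control. The median log2 changes were 0.66, 0.27 and 0.47, beside -0.01, 0.03 and -0.01 over all rows. TYROBP, which encodes DAP12, held 82.2 ± 31.8, 223 ± 13.4 and 348 ± 35.9 CPM. TYROBP was 2.71-fold above control with scramble ectosomes (adjusted p = 0.000287), and with PKM2-knockdown ectosomes the rise was 4.24-fold (adjusted p = 4.15e-05). TYROBP was also 1.56-fold higher with PKM2-knockdown than with scramble ectosomes (adjusted p = 0.0318), a call that ended without any 1 of the 3 scramble replicates or of PKM2-knockdown replicates 2 and 3 (adjusted p from 0.0646 to 0.0994). HCST, the gene of the related adaptor DAP10, stood at 3.33, 5.56 and 3.37 CPM and rose 1.66-fold with scramble ectosomes (adjusted p = 0.00515). Of the signalling genes, MALT1, a protease of NF-kB activation, rose 9.80-fold with scramble ectosomes (adjusted p = 1.88e-09). The phospholipase gene PLCG2 and the adaptor gene CARD9 fell 2.42-fold and 2.53-fold, and the exchange factor gene VAV1 rose 1.701-fold (adjusted p up to 6.24e-06).

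Other lipid-associated macrophage markers were mostly higher with PKM2-knockdown than with scramble ectosomes. Of 23 genes tested, 15 rose and 4 fell (31.4% and 30.3% of all rows), with a median log2 change of 0.92. Against control 12 rose and 6 fell with scramble ectosomes (34.6% and 33.2% of all rows), and 14 rose and 1 fell with PKM2-knockdown ectosomes (27.0% and 26.7%; 16 and 2 genes without control replicate 3). ACP5 and CD9 would have failed the filter without the PKM2-knockdown libraries, and CYP27A1 without the scramble libraries. Calls of these genes add nothing to such counts. SPP1, encoding osteopontin, held 2.98 ± 2.25, 37.3 ± 7.30 and 283 ± 3.78 CPM, a 12.2-fold rise with scramble ectosomes (adjusted p = 2.43e-05) and a further 7.60-fold rise with PKM2-knockdown ectosomes (adjusted p = 4.98e-05). SPP1 thus had its groups in the same order as GPNMB. The lysosomal lipase gene LIPA followed the order of TREM2 and CD36, at 82.8 ± 5.37, 35.8 ± 2.75 and 103 ± 2.90 CPM. It fell 2.31-fold with scramble ectosomes (adjusted p = 3.79e-07) and was 2.87-fold higher with PKM2-knockdown ectosomes (adjusted p = 1.73e-07). APOE, a lipoprotein that TREM2 can bind, held 2.03 ± 0.208, 5.71 ± 0.945 and 10.6 ± 2.52 CPM and was 1.85-fold higher with PKM2-knockdown than with scramble ectosomes (adjusted p = 0.00237). The protease gene CTSL and CST7, which encodes the protease inhibitor cystatin F, went the other way. CTSL stood at 74.96, 236 and 67.1 CPM and CST7 at 14.5, 97.8 and 2.34 CPM, so that CTSL was 3.52-fold and CST7 41.6-fold lower with PKM2-knockdown than with scramble ectosomes (adjusted p = 4.12e-08 and 1.36e-06).

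**Figure D4:**
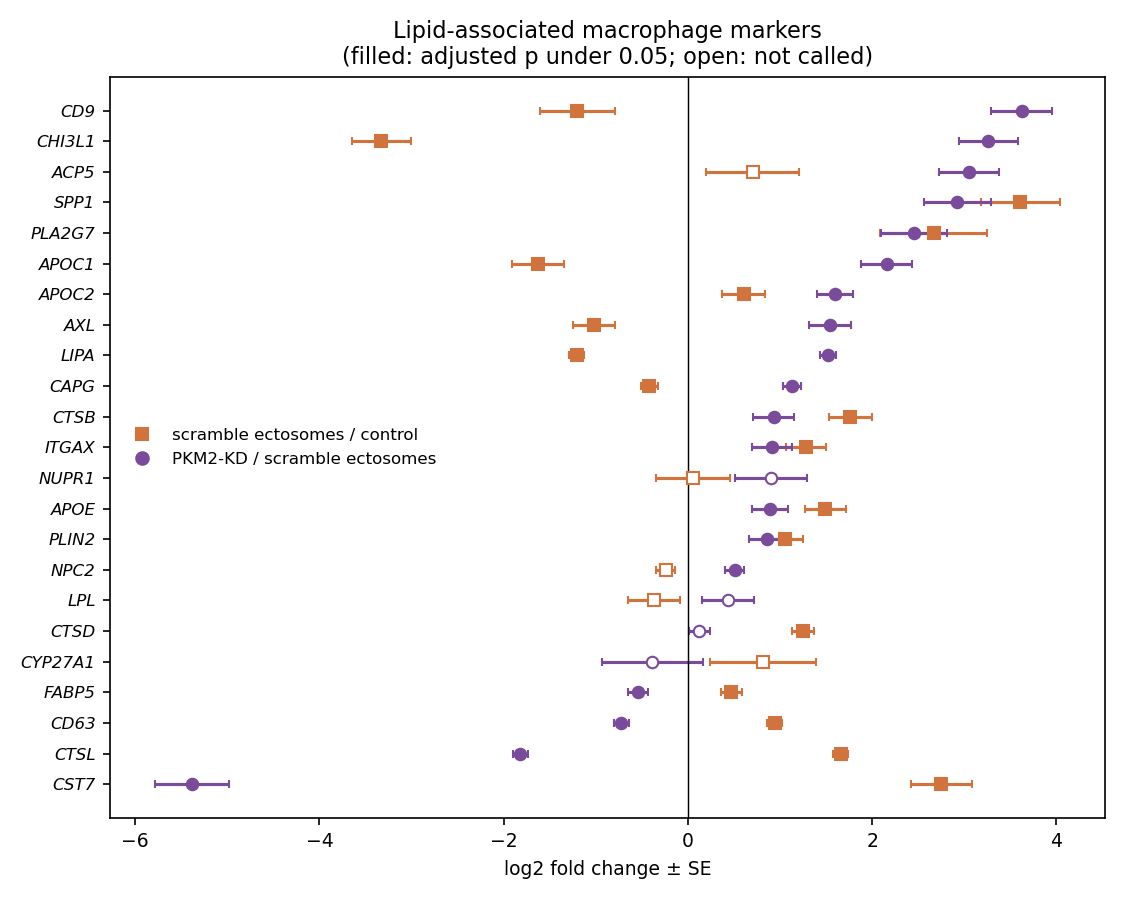
Fitted log2 changes with SE of the 23 lipid-associated markers tested, for scramble ectosomes against control (squares) and PKM2-knockdown against scramble ectosomes (circles), filled where the adjusted p is under 0.05. In the second comparison 15 filled circles lie right of 0 and 4 lie left, with CST7 at -5.38. ACP5 and CD9 would have failed the filter without the PKM2-knockdown libraries.

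Among 14 other scavenger receptor genes tested, 7 rose and 4 fell with scramble ectosomes, 7 rose and 3 fell with PKM2-knockdown against scramble ectosomes, and 9 rose and 4 fell against control. Shares of 67.8%, 61.6% and 53.7% of all rows were called in these comparisons. COLEC12, STAB1 and OLR1 would have failed the filter without the PKM2-knockdown libraries, where they are highest. The same holds for STAB2 and the control libraries. The calls of these genes thus add nothing to such counts. SCARB1, the receptor of high-density lipoprotein and a relative of CD36, held 103 ± 13.9, 33.4 ± 3.69 and 76.6 ± 3.29 CPM. It fell 3.09-fold with scramble ectosomes (adjusted p = 4.00e-07) and was 2.29-fold higher with PKM2-knockdown ectosomes (adjusted p = 6.51e-06), the directions seen for CD36. Its other relative SCARB2, a lysosomal membrane protein, stood at 44.4, 66.6 and 68.99 CPM and rose 1.501-fold with scramble ectosomes (adjusted p = 0.000201). OLR1, the receptor LOX-1 of oxidised lipoprotein, had 2 reads over the controls, 40 with scramble and 149 with PKM2-knockdown ectosomes. Its ratio to control was 19.4 (95% interval 5.03 to 166) and 73.7 (20.05 to 614), and it was 3.76-fold higher with PKM2-knockdown than with scramble ectosomes (adjusted p = 0.000120). SCARF1 rose 6.50-fold and CXCL16, whose membrane form binds oxidised lipoprotein, 6.23-fold with scramble ectosomes (adjusted p = 4.21e-06 and 6.83e-06). With PKM2-knockdown ectosomes SCARF1 was 2.25-fold lower than with scramble (adjusted p = 0.00124), while CXCL16 stood at 10.1 against 8.60 CPM (adjusted p = 0.385).

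Of 11 genes of CD36 partners and thrombospondins, 8 rose and 1 fell with scramble ectosomes, 2 rose and 4 fell with PKM2-knockdown against scramble ectosomes (3 and 6 without control replicate 3), and 9 rose and 0 fell against control (1 fell without control replicate 1 or 2). With scaling by library totals 2 fell between the kinds of ectosomes. The shares of all rows called were 67.8%, 61.6% and 53.7%. THBS1, whose product thrombospondin 1 is a CD36 ligand, stood at 356 ± 5.73 CPM with scramble and 101 ± 9.99 CPM with PKM2-knockdown ectosomes, 3.53-fold lower (adjusted p = 3.15e-06), where CD36 was higher. TLR2, which works with CD36 in sensing bacterial lipids, held 121 ± 5.15, 65.9 ± 0.964 and 190 ± 17.6 CPM, down 1.84-fold with scramble (adjusted p = 4.26e-06) and 2.88-fold higher with PKM2-knockdown than with scramble ectosomes (adjusted p = 1.75e-07). The kinase gene SRC rose 22.9-fold and the tetraspanin gene CD81 1.705-fold with scramble ectosomes (adjusted p up to 1.47e-05).

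Of 10 galectins and galectin-3 partners, 6 rose and 2 fell with scramble ectosomes, 4 rose and 3 fell with PKM2-knockdown against scramble ectosomes, and 6 rose and 1 fell against control (2 fell without control replicate 3). These counts lie near the shares of all rows called, 67.8%, 61.6% and 53.7%. With scaling by library totals 3 rose and 4 fell with scramble ectosomes, and 1 fell without control replicate 2 or scramble replicate 1 or 3. LGALS8 and LGALS9 rose 1.94-fold and 1.39-fold with scramble ectosomes (adjusted p up to 0.000253), smaller changes than the 6.04-fold of LGALS3. TRIM16, which acts with galectin-3 at damaged lysosomes, held 10.3 ± 2.29, 41.7 ± 2.46 and 11.0 ± 0.676 CPM. TRIM16 rose 4.05-fold with scramble ectosomes (adjusted p = 6.58e-07) and was 3.80-fold lower with PKM2-knockdown ectosomes (adjusted p = 1.67e-06). LGALS3BP, a secreted galectin-3 ligand, was 2.43-fold higher with PKM2-knockdown than with scramble ectosomes (adjusted p = 0.00104), and the lysosomal membrane gene LAMP1 1.79-fold lower (adjusted p = 4.11e-06).

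Of 20 transcription factors known to act on macrophage receptor genes, 17 rose and 2 fell with scramble ectosomes, against 34.6% and 33.2% of all rows. With PKM2-knockdown against scramble ectosomes 8 rose and 6 fell (10 and 9 without control replicate 3), and against control 14 rose and 1 fell. TFE3, a lysosome gene regulator, rose 4.64-fold with scramble ectosomes, the glucocorticoid receptor gene NR3C1 4.03-fold and the retinoid receptor gene RXRA 2.12-fold (adjusted p up to 1.55e-06). IRF4 went from 0.132 ± 0.0790 to 7.10 ± 0.541 CPM, and then stood at 2.44 ± 0.436 CPM with PKM2-knockdown ectosomes, 2.90-fold lower (adjusted p = 6.76e-05). TFE3 and NR3C1 were 1.62-fold and 2.46-fold lower there than with scramble ectosomes, and RXRA 1.27-fold higher (adjusted p up to 0.00612).

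The nearest profiles over the 9 libraries were sought among 11086 genes with at least 5 CPM on average, by the root mean square difference of centred log2 CPM (0.5 CPM added). For TREM2 these were RASSF4 and ADSSL1 (both 0.126), for CD36 AHNAK2 (0.158) and EFEMP2 (0.166), and for TREM1 the glucose transporter gene SLC2A3 (0.140) and the chemokine gene CXCL6 (0.149). For GPNMB they were ZFP36L1 (0.177) and the chemokine gene CCL3L1 (0.234), whose reads may be split with near-identical copies, and for LGALS3 RAPGEF1 (0.0881) and IRGQ (0.104). RASSF4 held 224, 35.97 and 235 CPM and SLC2A3 4.51, 96.7 and 38.6 CPM in the 3 groups. The added 0.5 CPM flattens values near or below 1 CPM, such as TREM1 in control cells (0.538 CPM) and TREM2 with scramble ectosomes (0.729 CPM). CXCL6 held 0.126, 11.9 and 4.45 CPM, so its nearness to TREM1 rests partly on this addition. The genes near or below 1 CPM in most groups are flattened the most. Nearest were IKBKE (0.206) and TCF4 (0.212) for CD163, and C19orf12 (0.0986) and PIP4K2A (0.104) for MSR1. For MARCO they were ZNF816 (0.212) and EEF1AKMT2 (0.223), and for CD68 CBARP (0.142) and APOBEC3F (0.143).

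Markers of other cell types were measured beside these results. The hepatocyte markers APOB, AFP, FGB and AHSG were not analysed here. The other 6 of 10 summed to 3.37 to 8.09 CPM in control cells, 5.99 to 7.11 with scramble and 41.3 to 47.9 with PKM2-knockdown ectosomes, where SERPINA1, which monocytes also express, made up 37.4 ± 3.61 CPM and ALB 0.448 CPM. Of 5 epithelial markers the sum reached 2.65 CPM at most, with CDH1 at 1.82 CPM with PKM2-knockdown ectosomes 0.0695 CPM in control cells and 0.0671 CPM with scramble ectosomes. The T-cell markers stayed at or below 0.181 CPM in sum, CD3D and CD2 not being analysed here. Their part in the results was not tested.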

How the data were processed

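RNA-seq of 9 THP-1 libraries was analysed from 1 table of read counts per gene symbol, which the authors deposited without normalization. HISAT2 2.0.5, featureCounts 1.5.0-p3 and GRCh38/hg38 are named in the submitters' processing notes. For annotation release, strand setting and filters nothing is stated in the sources used here, and overlapping genes may have lost or exchanged reads. Of 30000 rows, 355 repeat an earlier symbol and were kept separately, and 29976 names are in GENCODE 29, the source of coordinates and exon lengths. An exon length is the number of bases in the merged exons of all transcripts of a gene.

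Counts were tested with edgeR 4.0.16 in R 4.3.3 (filterByExpr by group with a minimum count of 10, TMM, 1 quasi-likelihood fit of all 9 libraries with group as the only term, two-sided, Benjamini-Hochberg over 18437 rows). Each adjusted p is from this test unless stated. SE is the log2 fold change over the square root of F. The fit was tested on simulated data. Alternatives were DESeq2 1.42.0, limma-voom 3.58.1, other scalings, no filter, 2 groups only, a replicate block and each library left out. The same alternatives were added for the lists after seeing the data.

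The 10 genes and the lists were chosen with earlier results of these data known. Named besides the 10 were up to 4 genes per list with the smallest p in any comparison, direct partners or ligands of the 10, the 2 nearest profiles of each gene and the TREM cluster, which was added after its values were seen. Marker lists of 2 other cell types are not reported here.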

Additional observations from a re-analysis of the deposited data

How the results depend on the processing

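For the 9 genes tested, 418 of 429 log2 fold changes recomputed under the 16 alternatives kept their direction and side of the threshold, 9 passed it newly (6 of them LGALS3 between the 2 kinds of ectosomes) and 2 reversed. The reversed values were MARCO with PKM2-knockdown ectosomes against control without control replicate 3 (log2 fold change 0.00258) and MSR1 in the same comparison without PKM2-knockdown replicate 1 (-0.0164), neither of them called. As each library was left out, these ran from -0.74 to 0.00258 for MARCO and from -0.0164 to 0.44 for MSR1. The cause was not tested. With only 2 groups fitted, CD68 (2 comparisons) and MSR1 (1) could not be fitted. The genes called numbered 6 to 7, 6 to 7 and 5 to 6 of the 10 in the 3 comparisons as each library was left out. No total of calls in a list moved by over 1.5 times, but counts in 1 direction did for the galectins, the CD36 partners and the lipid-associated markers, under the settings named beside them. The falls among galectins with scramble ectosomes were also 1 with DESeq2 and with only 2 groups fitted, and those among lipid-associated markers and CD36 partners with PKM2-knockdown ectosomes against control 2 and 1 with library totals. Scaling by library totals alone moved the median log2 fold change of all rows from -0.01 to -0.21 with scramble ectosomes and from 0.03 to 0.20 between the kinds of ectosomes. Same-numbered libraries showed no shared deviation (r from -0.134 to 0.0948 over 9 pairs), which cannot tell whether they were handled as pairs. With the replicate number as a block the genes called were 6, 6 and 5, as without it, and the rows called 12179, 11035 and 9401 against 12492, 11365 and 9904. Depth limits MSR1, MRC1, MARCO, CD163 and CD68, which had fewer than 100 reads over a group in most groups.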
